A study of Mus musculus with 6 samples.

Results

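Interferon-stimulated genes were followed across arrays of 3 kinds of sorted mouse fat cells. The list held 35 genes, chosen by name as textbook targets of the interferon response, and 33 of them had a probe set of their own among the 17720 genes measured. Isg15 and Ifi44 had none and were not analysed here. A gene with several probe sets was represented by the one whose mean across the 6 arrays was highest.

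Cells that detect viral nucleic acid release interferons, and these bind receptors on the same and neighbouring cells. Receptor-bound kinases then activate STAT and IRF transcription factors, which switch on a shared set of genes whose products degrade viral RNA, block translation or entry, and cut antigens for display. Fat tissue holds several cell types that can carry out this program, among them adipocytes, macrophages and endothelial cells.

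The tested cells were bone marrow-derived adipocytes, sorted by a donor marker from the floating fat cell layer of the gonadal depot after marrow transplantation. Donor cells made green fluorescent protein (GFP) for replicate 1. For replicate 2 they made the enzyme beta-galactosidase (LacZ, detected with the substrate FDG). They were set against gonadal white adipocytes and against brown adipocytes from the intrascapular fat, with 2 arrays in each of the 3 groups. All tissue was digested with collagenase, and at least 6 sorts of about 5000 cells were pooled per sample, whose RNA was amplified before labelling. Strain, age and sex are not given for any group, and a transplant is named for the marrow-derived cells alone, so transplantation, donor marker and cell origin cannot be told apart from one another here. Samples of a group are labelled biological replicates, but the labels name no separate animals, and the p-values can therefore reflect technical spread alone.

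Several measures of the arrays bear on every result that follows. Adipoq (adiponectin, a defining adipocyte product) stood at 12.70 and 11.86 in the GFP and LacZ arrays, 13.22 and 13.24 in white and 13.01 and 13.15 in brown arrays, on the log2 scale of all values here. All 8 adipocyte markers measured had lower means in marrow-derived arrays, and 3 passed as lower than in white (Lep, the hormone leptin, -2.67; Lipe, hormone-sensitive lipase, -1.90; Cidec, a lipid droplet protein, -1.76; list median -1.30). Against brown 3 were lower, Lep, Lipe and the lipase gene Pnpla2, with a list median of -0.94. Xist, the RNA that silences an X chromosome in female cells, stood at 10.87 and 10.85 in the marrow-derived arrays, against 2.99 and 3.35 in white and 3.39 and 3.36 in brown arrays, so the sex of the cells moved with the comparison. All 12 endothelial markers measured were higher in marrow-derived than in white arrays, and their mean level was 11.36 and 11.93 in the GFP and LacZ arrays, 8.40 and 7.35 in white and 10.90 and 10.41 in brown arrays. The mean of 14 macrophage markers was 11.39 and 8.92 in the GFP and LacZ arrays, 11.23 and 9.98 in white and 8.84 and 8.38 in brown arrays. None of the 14 passed against white, and 1, Mertk, was higher than in brown. Of 7 fibroblast markers 3 were higher than in white, Postn (12.1-fold), Thy1 (9.54-fold) and Pdgfrb (8.90-fold), and 4 were higher than in brown, with mean levels of 10.77 and 10.67 in the GFP and LacZ arrays, 9.64 and 8.55 in white and 8.37 and 7.62 in brown arrays. Of 5 mesothelial markers 0 passed against white and 3 were higher than in brown, led by Upk3b (41.9-fold), with mean levels of 8.15 and 6.08 in the GFP and LacZ arrays, 7.24 and 7.32 in white and 3.80 and 4.09 in brown arrays. The part of sex and of these cell types in the results was not tested. In such mixed RNA, fewer cells of a type and less RNA per cell cannot be told apart.

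Interferon acts on many of these genes through short DNA words near their starts. They include the interferon-stimulated response element (ISRE), named for the response to type I interferon, and the gamma-activated site (GAS), named for the response to interferon gamma. RefSeq promoter windows (build GRCm38.p6, from 250 bases before to 50 bases after a start) were found for 28 of the 33 genes. The ISRE core, written as GAAA, any 2 bases and GAAA again and searched on both strands, was in a window of 16 of the 28 genes (57.1%), against 3.99% of all 27025 genes with a window. The GAS core TTCNNNGAA, which reads the same on both strands, was in a window of 10 of the 28 (35.7%), against 9.55% of all. All windows shown here hold a match, and they run 5′ to 3′ on the gene's strand. Capitals mark the ISRE core in the first 5 and the GAS core in Irf1. Not every gene with a large difference from white had one. The windows of Oasl2 and Irf7 held 0 ISRE and 0 GAS cores. Those of Ifit2 held 0 ISRE cores, with 1 GAS core in 1 of them. A match describes letters and not a bound site.
Ifit1 promoter, chr19:34640639-34640938, plus strand: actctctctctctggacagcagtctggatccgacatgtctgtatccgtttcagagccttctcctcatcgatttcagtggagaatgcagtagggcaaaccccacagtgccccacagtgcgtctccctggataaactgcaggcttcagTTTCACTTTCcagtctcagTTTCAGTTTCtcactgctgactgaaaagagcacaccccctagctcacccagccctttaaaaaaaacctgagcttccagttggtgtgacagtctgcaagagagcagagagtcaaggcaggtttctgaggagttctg
Ifit3 promoter, chr19:34583279-34583578, plus strand: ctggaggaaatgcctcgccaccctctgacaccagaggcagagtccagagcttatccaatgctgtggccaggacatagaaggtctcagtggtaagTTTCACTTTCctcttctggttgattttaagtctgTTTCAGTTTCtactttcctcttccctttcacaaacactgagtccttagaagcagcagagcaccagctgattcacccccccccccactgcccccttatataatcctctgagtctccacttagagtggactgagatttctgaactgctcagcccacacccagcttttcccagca
Oas1a promoter, chr5:120907476-120907775, minus strand: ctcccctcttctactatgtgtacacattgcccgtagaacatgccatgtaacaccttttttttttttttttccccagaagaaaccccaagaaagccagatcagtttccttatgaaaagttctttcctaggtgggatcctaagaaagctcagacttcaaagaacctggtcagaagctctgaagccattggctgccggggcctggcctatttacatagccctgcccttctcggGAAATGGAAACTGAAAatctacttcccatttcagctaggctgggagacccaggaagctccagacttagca
Rsad2 promoter, chr12:26456403-26456702, minus strand: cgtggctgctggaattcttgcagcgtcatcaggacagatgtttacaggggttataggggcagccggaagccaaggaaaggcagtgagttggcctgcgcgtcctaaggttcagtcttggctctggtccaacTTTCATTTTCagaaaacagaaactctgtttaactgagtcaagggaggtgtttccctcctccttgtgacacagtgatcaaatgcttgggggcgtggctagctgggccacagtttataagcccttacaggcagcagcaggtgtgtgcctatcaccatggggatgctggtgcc
Irgm1 promoter, chr11:48871371-48871670, minus strand: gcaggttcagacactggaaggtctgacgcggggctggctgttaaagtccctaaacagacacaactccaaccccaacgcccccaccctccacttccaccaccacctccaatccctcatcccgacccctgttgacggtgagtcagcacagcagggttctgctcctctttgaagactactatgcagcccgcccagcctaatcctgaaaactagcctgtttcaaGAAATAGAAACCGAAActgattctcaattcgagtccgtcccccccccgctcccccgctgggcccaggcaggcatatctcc
Irf1 promoter, chr11:53769764-53770063, plus strand: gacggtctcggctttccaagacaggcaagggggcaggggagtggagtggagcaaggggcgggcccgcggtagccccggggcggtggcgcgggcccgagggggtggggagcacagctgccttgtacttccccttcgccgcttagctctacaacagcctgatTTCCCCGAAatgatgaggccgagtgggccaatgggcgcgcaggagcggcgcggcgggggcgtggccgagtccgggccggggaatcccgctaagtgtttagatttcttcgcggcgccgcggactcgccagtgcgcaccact
In the Ifit1 window the cores begin 104 and 85 bases before the start. In Ifit3 they begin 156 and 122 bases before it, in Rsad2 there is 1 core, 120 bases before it, and in Oas1a and Irgm1 there are 2 overlapping cores, at 20 and 14 and at 30 and 24 bases. ISRE and GAS matches overlapped in windows of Bst2 and Ifitm3, which are not shown, and in none of the windows shown.

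Marrow-derived adipocytes carried more interferon-stimulated RNA than white adipocytes for nearly the whole list. All 33 genes had a positive difference, 29 passed the test as higher (adjusted p under 0.05) and 0 were lower, where 12.2% of all genes were called higher and 13.6% lower in this comparison. The median log2 difference was 1.66, against -0.07 over all genes, and it ran from 0.25 to 3.06. In 13 genes the difference was at least 4-fold, a share that was not counted over all genes. The largest were in Ifit2 (8.35-fold), Oasl2 (7.71-fold), Oas2 (7.45-fold) and Usp18 (7.04-fold). In 30 genes both marrow-derived arrays lay above both white arrays, as they did for 28.5% of all genes, and in 0 did both lie below, against 35.8% of all genes. The list was chosen with earlier results of these data known, so these counts are descriptions. The count of 29 fell most without white replicate 2, when limma also called fewer of all genes. Under each of the 11 alternatives tried 15 genes were called, a share that was not counted over all genes. The calls of Ifitm2, Gbp2, Trim25, Dhx58, Ifitm3 and Psmb8 were lost under 6 to 9 of the 11, those of Oas1a and Psmb9 under 5, and those of the other 6 under 1. In this comparison, leaving out either brown array gave the same fit as using the compared arrays alone. The tallies over the 11 therefore count that fit more than once.

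Against brown adipocytes fewer of the genes passed. Again all 33 differences were positive, with 20 genes higher and 0 lower by the test, where 8.71% of all genes were called higher and 11.7% lower. The median was 1.24, against 0.02 over all genes, with a range of 0.24 to 3.51. Both marrow-derived arrays lay above both brown arrays in 33 of 33 genes, as they did for 33.0% of all genes (both below in 32.0%), and above all 4 white and brown arrays in 30 genes, against 21.0% of all genes. These calls needed both brown arrays: 1 gene was called without brown replicate 1 and 0 without brown replicate 2, when limma called 121 and 61 of all genes higher, while the median stayed at 1.18 and 1.30. Dhx58, Ddx58 and Ifitm2 lost the call against brown under 9 or 10 of the 11 alternatives. Among the 11, leaving out either white array gave the same fit here as the compared arrays alone. The call was higher against both white and brown in 19 genes, as it was for 5.12% of all genes. Both comparisons share the marrow-derived arrays.

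**Figure D1:**
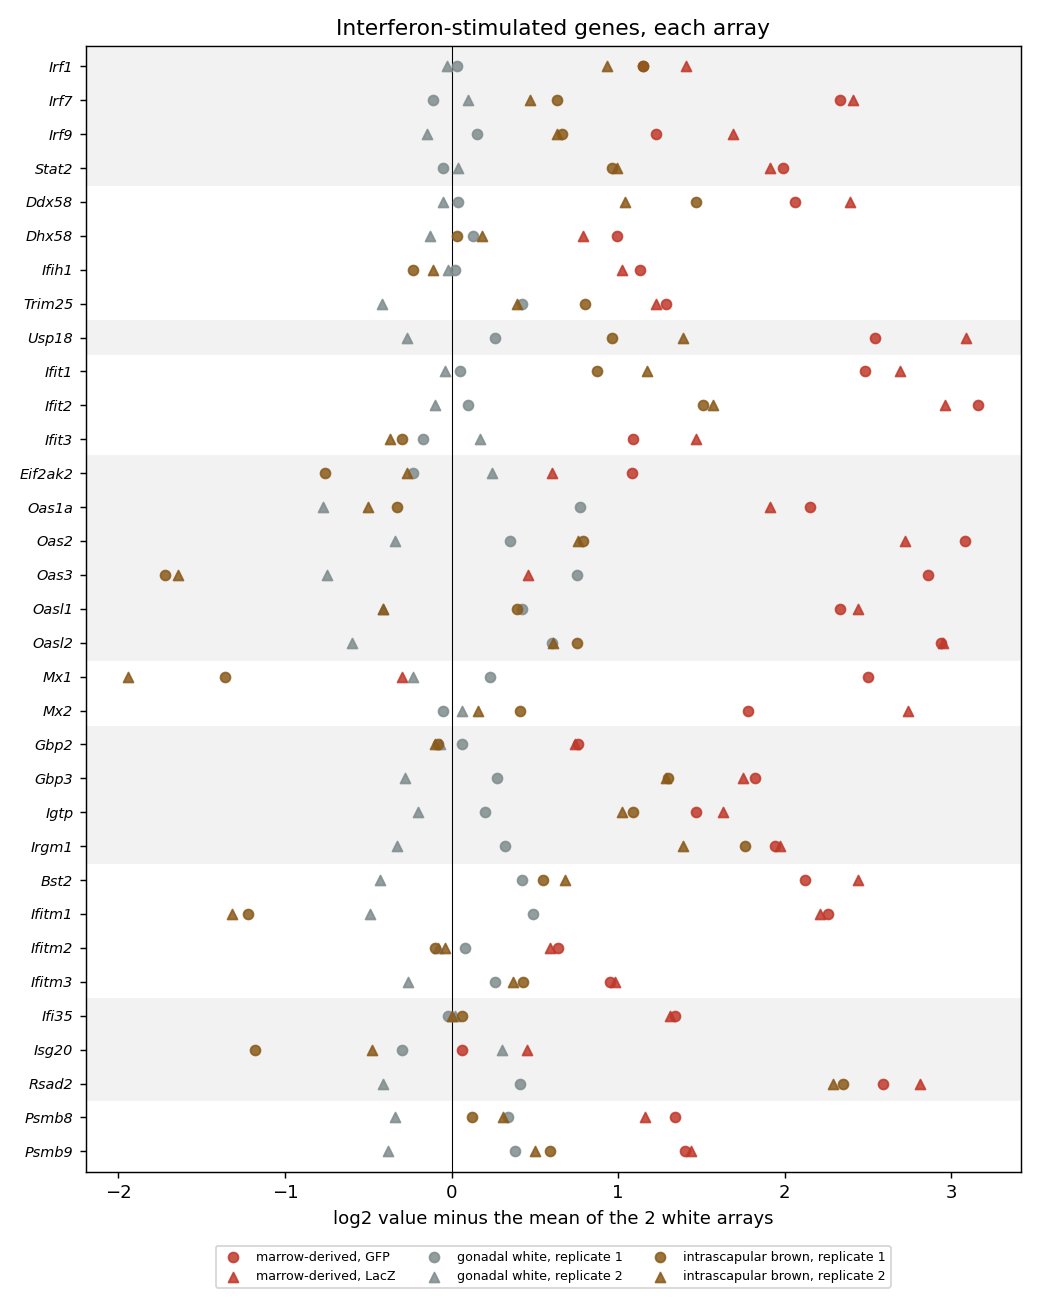
The log2 value of each of the 33 genes on each array, minus the mean of the 2 white arrays for that gene, with shaded bands for gene roles. Red marrow-derived points lie to the right of grey white and brown-coloured brown fat points in 30 genes, though by under 0.01 for Irf1, and the exceptions are Mx1, Oas3 and Isg20.

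The factors that carry the interferon signal to DNA were higher. Irf7, which amplifies type I interferon production, stood at 9.74 and 9.82 in the GFP and LacZ arrays, 7.30 and 7.51 in white and 8.04 and 7.88 in brown arrays. The marrow-derived pair differed by less than 0.1, and neither other group came near it. The difference was 5.17-fold from white (2.37 ± 0.17, SE, n = 2 arrays per group, adjusted p = 0.00352) and 3.53-fold from brown (1.82 ± 0.17, adjusted p = 0.00436). Stat2, a signal transducer of the type I response, was at 9.14 and 9.06 in marrow-derived, 7.10 and 7.19 in white and 8.11 and 8.14 in brown arrays. It was higher than in white (1.95 ± 0.15, adjusted p = 0.00358) and than in brown (0.97 ± 0.15, adjusted p = 0.0147). Its other probe set, with values from 5.74 to 6.70, differed by 0.70 from white and 0.40 from brown. Irf9, a DNA-binding factor of the type I response, stood at 9.19 and 9.65, against 8.11 and 7.81 in white and 8.62 and 8.59 in brown arrays. It passed against white (1.46 ± 0.22, adjusted p = 0.0108) and missed the threshold against brown (0.81 ± 0.22, adjusted p = 0.0589). Irf1, a transcription factor induced early by interferon, was at 11.52 and 11.78 in marrow-derived arrays, 10.40 and 10.34 in white and 11.52 and 11.30 in brown arrays. Its rise over white (1.28 ± 0.18, adjusted p = 0.00909) had no counterpart past the threshold against brown (0.24 ± 0.18, adjusted p = 0.391), where brown replicate 1 equalled the GFP array to 2 decimals.

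Sensors of viral RNA followed. Ddx58, which encodes RIG-I, had 9.38 and 9.71 in the GFP and LacZ arrays, 7.36 and 7.27 in white and 8.79 and 8.36 in brown arrays. The rise was 4.69-fold over white (adjusted p = 0.00479) and 1.95-fold over brown (adjusted p = 0.0383). Its other 2 probe sets had smaller differences, 0.72 and 0.0 from white and 0.43 and -0.29 from brown, and the call against brown was lost under 9 of the 11 alternatives. Ifih1, the MDA5 sensor of long double-stranded RNA, stood at 10.24 and 10.13, against 9.13 and 9.09 in white and 8.88 and 9.0 in brown arrays, so white and brown were nearly level and marrow-derived cells rose over both (1.07 ± 0.16 and 1.24 ± 0.16). Trim25, a ubiquitin ligase that activates RIG-I, was at 12.26 and 12.20, against 11.39 and 10.55 in white and 11.77 and 11.36 in brown arrays. It passed against white (1.27 ± 0.32, adjusted p = 0.0405) and not against brown (0.67 ± 0.32, adjusted p = 0.204). Dhx58, the LGP2 regulator of both sensors, had differences of 0.89 ± 0.18 (adjusted p = 0.0234) and 0.78 ± 0.18 (adjusted p = 0.0395). Its other 2 probe sets had low values, from 2.49 to 4.76, and opposite differences from white (-0.54 and -0.44), so that the mean over its 3 probe sets differed by -0.03.

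Among the effectors, the Ifit genes make proteins that hold back translation of foreign RNA. All 3 were higher than in both other groups. Ifit1 stood at 10.10 and 10.31 in marrow-derived, 7.67 and 7.58 in white and 8.49 and 8.79 in brown arrays. Ifit2 was at 10.70 and 10.50, against 7.64 and 7.44 in white and 9.05 and 9.11 in brown arrays, and had the largest difference from white on the list (3.06 ± 0.17, adjusted p = 0.00352). In both, the 3 groups lay in separate steps, with white lowest and brown between. Ifit3 broke that order, at 10.95 and 11.33, against 9.69 and 10.03 in white and 9.56 and 9.49 in brown arrays. It was 2.43-fold higher than in white and 3.06-fold higher than in brown.

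The oligoadenylate synthetases make the second messenger that turns on RNase L. Of 5 genes on the list for such enzymes or proteins like them, 4 were higher than in both other groups. Oas2 stood at 9.58 and 9.22 in the GFP and LacZ arrays, 6.85 and 6.16 in white and 7.29 and 7.26 in brown arrays, 2.90 ± 0.28 above white (adjusted p = 0.00444) and 2.12 ± 0.28 above brown (adjusted p = 0.00937). Oasl2, a relative in the same family, was at 9.83 and 9.84, against 7.49 and 6.29 in white and 7.64 and 7.50 in brown arrays. Oas1a had 10.06 and 9.82, against 8.68 and 7.14 in white and 7.58 and 7.41 in brown arrays, and Oasl1 had 8.05 and 8.16, against 6.14 and 5.31 in white and 6.11 and 5.31 in brown arrays. The marrow-derived arrays of these 4 genes stood clear of both other groups, where white replicate 1 was above white replicate 2 by 0.69 to 1.54. Oas1a lost its call against white without either marrow-derived array (adjusted p = 0.102 without GFP and 0.086 without LacZ) or either brown array (adjusted p = 0.0913). Eif2ak2, the kinase PKR that stops translation on double-stranded RNA, was at 10.30 and 9.82, against 8.99 and 9.46 in white and 8.46 and 8.95 in brown arrays. It was higher than in brown (1.35 ± 0.29, adjusted p = 0.0328) and did not pass against white (0.83 ± 0.29, adjusted p = 0.0974). Its other probe sets had smaller differences, 0.31 and 0.75 from brown and 0.08 and 0.25 from white. The call against brown was lost under 5 of the 11 alternatives.

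Oas3 and Mx1 were the genes on which the GFP and LacZ arrays parted. Oas3, the largest oligoadenylate synthetase, stood at 8.40 in the GFP and 6.00 in the LacZ array, against 6.29 and 4.79 in white and 3.82 and 3.90 in brown arrays. Mx1, a nuclear GTPase that blocks influenza virus in mice, stood at 9.35 in the GFP and 6.55 in the LacZ array, against 7.08 and 6.62 in white and 5.49 and 4.91 in brown arrays. In both genes the LacZ array fell among or below the white arrays, and the GFP array was the highest of the 6. Neither passed against white (adjusted p = 0.233 and 0.431) or brown (adjusted p = 0.0522 and 0.0894). Mx2, its cytoplasmic relative, went the other way within the pair, at 6.29 in the GFP and 7.25 in the LacZ array, against 4.46 and 4.57 in white and 4.92 and 4.67 in brown arrays. It was 4.77-fold higher than in white (adjusted p = 0.0105) and 3.92-fold higher than in brown (adjusted p = 0.0186).

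Interferon-induced GTPases of the GBP and IRG families attack vacuoles that hold microbes, and they are known for their strong response to interferon gamma. Irgm1 stood at 9.57 and 9.60 in marrow-derived, 7.95 and 7.30 in white and 9.39 and 9.02 in brown arrays. Igtp was at 10.18 and 10.34, against 8.91 and 8.51 in white and 9.80 and 9.73 in brown arrays, and Gbp3 at 11.03 and 10.96, against 9.48 and 8.93 in white and 10.51 and 10.50 in brown arrays. In all 3 the brown arrays lay close to the marrow-derived ones, and the white arrays lay well below both. They rose 2.93-fold to 3.89-fold over white (adjusted p from 0.00725 to 0.00889), while their differences from brown of 0.38 to 0.49 did not pass. Gbp2 was the fourth, at 11.37 and 11.35, against 10.67 and 10.54 in white and 10.53 and 10.51 in brown arrays. It had small differences that passed in both comparisons (0.75 ± 0.15 and 0.84 ± 0.15, adjusted p = 0.0226 and 0.0214). Its call was lost under 8 of the 11 alternatives against white and under 5 against brown.

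Rsad2, which encodes the antiviral enzyme viperin, stood at 12.17 and 12.39 in the GFP and LacZ arrays, 9.99 and 9.17 in white and 11.93 and 11.87 in brown arrays. The rise over white was 6.52-fold (2.71 ± 0.30, adjusted p = 0.0058), and the difference from brown of 0.38 ± 0.30 did not pass (adjusted p = 0.405). Its other 2 probe sets differed from white by 3.21 and 3.17 and from brown by 1.06 and 0.60. Usp18, which strips ISG15 from proteins and damps the receptor, was at 9.93 and 10.48, against 7.65 and 7.12 in white and 8.35 and 8.78 in brown arrays, and rose over both (adjusted p = 0.00568 and 0.0223). Ifi35, a cytosolic interferon-induced protein, was at 12.75 and 12.72, against 11.39 and 11.43 in white and 11.47 and 11.41 in brown arrays, with every group tight to within 0.06. It was 2.50-fold above white and 2.45-fold above brown (adjusted p = 0.00605 and 0.00696). Isg20, an RNA exonuclease, was the gene closest to white, at 9.32 and 9.71, against 8.96 and 9.56 in white and 8.08 and 8.78 in brown arrays, and passed in neither comparison (adjusted p = 0.645 and 0.083).

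Restriction factors of the cell membrane were higher than in white in all 4 cases. Ifitm1, whose family blocks fusion of viruses with endosomes, stood at 9.03 and 8.98 in marrow-derived, 7.26 and 6.28 in white and 5.55 and 5.45 in brown arrays. Here white lay above brown, and the 11.4-fold rise over brown (3.51 ± 0.34, adjusted p = 0.00462) was the largest of that comparison. Bst2, or tetherin, which holds budding virus at the cell surface, was at 11.68 and 12.00, against 9.98 and 9.13 in white and 10.11 and 10.24 in brown arrays (4.86-fold and 3.16-fold). Ifitm2 and Ifitm3 had small differences from white, 0.61 ± 0.16 and 0.97 ± 0.22 (adjusted p = 0.0423 and 0.0298), and lost these calls under 9 and 6 of the 11 alternatives. Ifitm2 also passed against brown (0.69 ± 0.16, adjusted p = 0.0371), and Ifitm3 did not (0.57 ± 0.22, adjusted p = 0.131). The immunoproteasome subunits Psmb8 and Psmb9, which cut proteins into peptides for class I display, rose 2.38-fold and 2.68-fold over white (adjusted p = 0.0255 and 0.0201). Against brown Psmb8 (1.03 ± 0.27, adjusted p = 0.0502) and Psmb9 (0.88 ± 0.28, adjusted p = 0.0837) missed the threshold. Psmb8 stood at 11.35 and 11.17 in marrow-derived arrays, against 10.35 and 9.67 in white and 10.13 and 10.32 in brown arrays. Psmb9 stood at 11.05 and 11.09, against 10.03 and 9.27 in white and 10.24 and 10.15 in brown arrays.

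**Figure D2:**
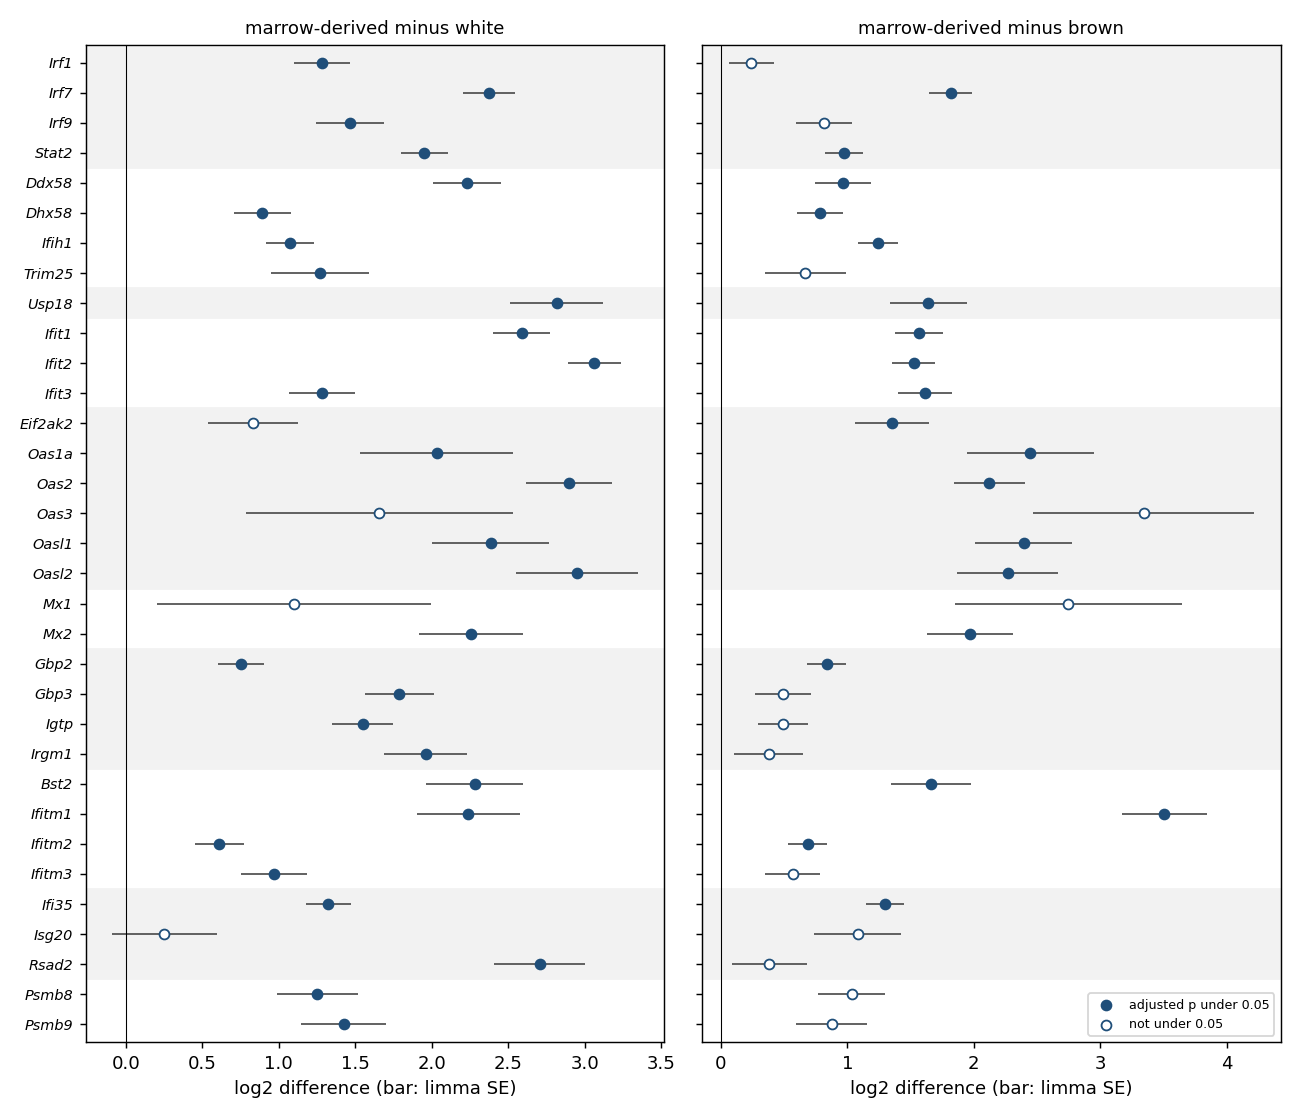
The log2 difference of each gene between marrow-derived and white arrays (left) and marrow-derived and brown arrays (right), with limma's standard error as a bar and filled points for an adjusted p under 0.05. All 33 points lie right of 0 in both panels, with 29 filled on the left and 20 on the right.

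White and brown adipocytes differed from each other in part of the list, and white was the lower. By the test 9 genes were lower in white and 0 higher, where 5.34% of all genes were called lower and 3.87% higher, and the median difference was -0.55, against 0.02 over all genes. Both white arrays lay below both brown arrays in 18 genes and above them in 8, against 29.7% and 32.4% of all genes. The 9 were Rsad2 (-2.32 ± 0.30, adjusted p = 0.0155), Irgm1 (-1.58 ± 0.27), Ifit2 (-1.54 ± 0.17), Gbp3 (-1.30 ± 0.22), Ddx58 (-1.26 ± 0.22), Igtp (-1.06 ± 0.20), Irf1 (-1.04 ± 0.18), Ifit1 (-1.02 ± 0.19) and Stat2 (-0.98 ± 0.15). For Rsad2, Irf1, Irgm1, Gbp3 and Igtp, the step between white and brown was 68.4% to 85.8% of the log2 step between white and marrow-derived arrays, and for Ifi35, Dhx58 and Mx2 it was 2.23% to 12.5%. In the other direction Oas3 (1.69 ± 0.88), Mx1 (1.65 ± 0.90) and Ifitm1 (1.27 ± 0.34) had larger values in both white arrays than in both brown arrays, without passing (adjusted p = 0.299, 0.318 and 0.082). The 12 endothelial markers also differed between these groups, with 10 lower in white and a median of -3.02, and all 14 macrophage markers had larger values in both white arrays (median 1.97) with 0 past the test (4 at an unadjusted p under 0.05). Their part in the result was not tested. The count of 9 was 0 without either brown array, 4 without white replicate 1 and 2 without white replicate 2, and 5 with the replicate number as a block.

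**Figure D3:**
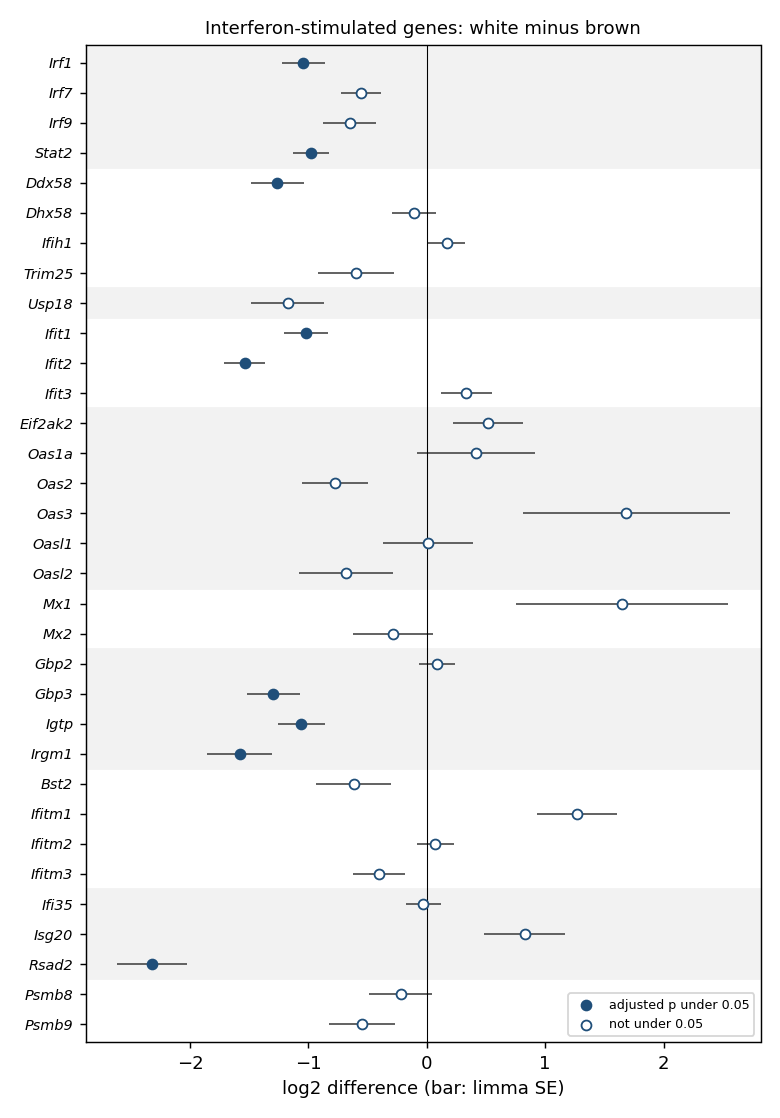
The log2 difference of each gene between white and brown arrays, with limma's standard error as a bar and filled points for an adjusted p under 0.05. The 9 filled points all lie left of 0, led by Rsad2 at -2.32, and Oas3, Mx1 and Ifitm1 lie farthest right.

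The marrow-derived pair was close for these genes and far apart for macrophage markers and for several other marker lists. The median absolute gap between the GFP and LacZ arrays was 0.19 over the 33 genes, against 0.28 over all genes, and it was under 0.5 in 29 of them. The exceptions above 1 were Mx1 (2.79) and Oas3 (2.39), both higher in the GFP array. The GFP array was the higher one in 16 genes and the LacZ array in 17, with a median signed gap of -0.02. Over the 14 macrophage markers the GFP array was higher in 14, by a median of 2.81, with Ptprc (the leukocyte antigen CD45) at 10.87 in the GFP and 7.62 in the LacZ array. The GFP array was also higher in 7 of 7 brown adipocyte markers (median 2.63) and 5 of 5 mesothelial markers (median 2.03). Median gaps over the neutrophil and B cell markers were 2.16 and 1.46, and over the fibroblast markers -0.01. Over the 12 endothelial markers the LacZ array was higher in 12, by a median of 0.60. What these gaps mean for the listed genes was not tested. The median difference from white was 1.70 with the GFP array left out and 1.83 with the LacZ array left out. In these fits fewer of the 33 genes passed against white and against brown than with all arrays. Fewer of all genes were then called higher as well. White arrays parted more on the list, with replicate 1 higher in 26 of 33 genes and a median signed gap of 0.40, beside 1.40 over the macrophage and 1.12 over the endothelial markers.

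**Figure D4:**
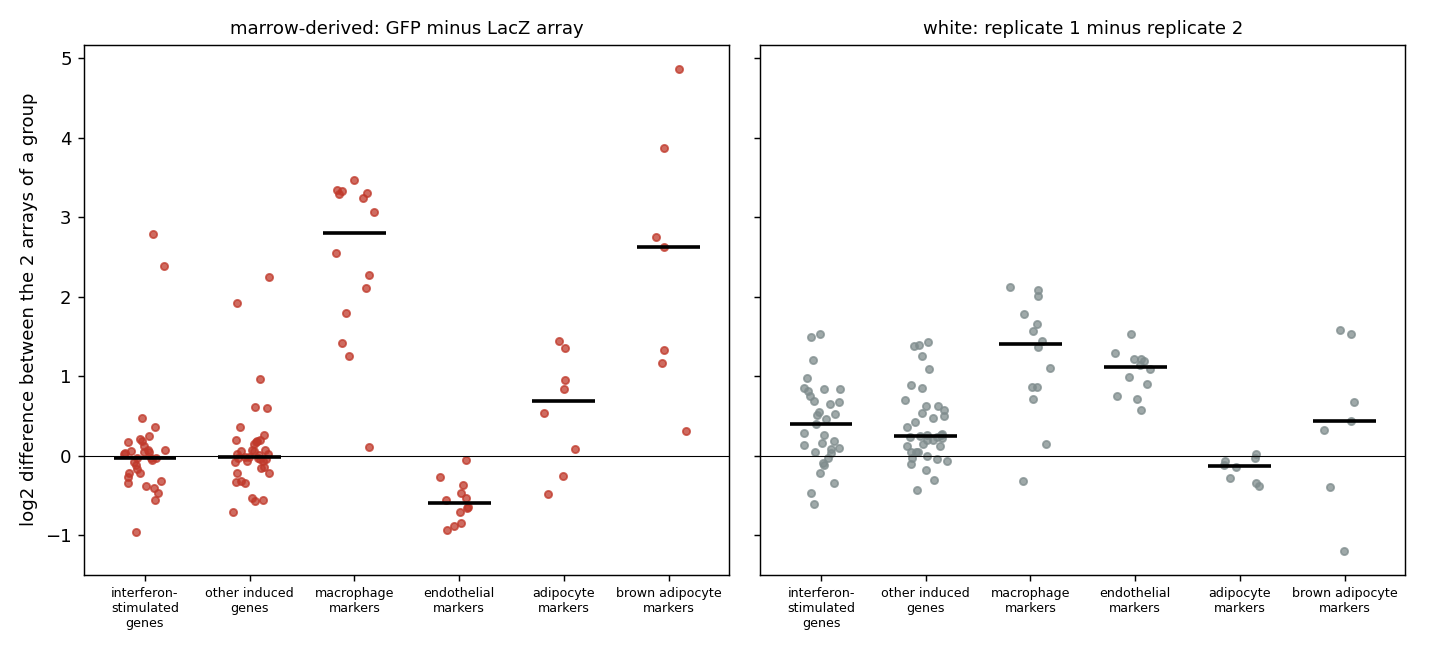
The log2 difference between the 2 arrays of a group, GFP minus LacZ for marrow-derived (left) and replicate 1 minus replicate 2 for white (right), with a point for each gene and a bar at the median of each list. On the left the interferon-stimulated genes centre on -0.02 with Mx1 and Oas3 above 2. The macrophage markers centre on 2.81, the brown adipocyte markers on 2.63 and the endothelial markers on -0.60.

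Markers of other leukocytes were measured beside the list. Plasmacytoid dendritic cells are strong producers of type I interferon, and their lectin Siglech stood at 6.66 and 5.21 in the GFP and LacZ arrays, 5.64 and 5.35 in white and 4.74 and 5.07 in brown arrays. None of the 4 measured markers of these cells passed against white or brown, where 1 had an unadjusted p under 0.05 against white and 0 against brown. Their mean level was 5.67 and 4.87 in the GFP and LacZ arrays, 5.02 and 4.91 in white and 5.00 and 4.91 in brown arrays. The mean over 6 T and NK cell markers was 5.79 and 5.05, against 4.60 and 4.18 in white and 4.81 and 4.72 in brown arrays. Of these, 1 passed against white, Cd247 (3.35), a signalling chain of the T cell receptor. Over 3 B cell markers the mean was 6.94 and 5.21, against 5.28 and 4.56 in white and 5.68 and 5.96 in brown arrays, and over 5 neutrophil markers it was 6.23 and 4.17, against 6.45 and 6.14 in white and 4.95 and 4.75 in brown arrays. Of the neutrophil markers 1 was lower than in white, Elane, a granule protease. Their part in the results was not tested.

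Genes of interferon signalling and its control were called in both directions. A list of 36 such genes held interferons, receptors, kinases, sensors, adaptors, transcription factors, inhibitors and phosphatases. Of the 34 measured, 8 were higher and 2 lower than in white and 7 higher and 1 lower than in brown. The list medians were 0.03 and 0.52. Over all genes 12.2% were higher and 13.6% lower than in white and 8.71% higher and 11.7% lower than in brown, with medians of -0.07 and 0.02. The other 2 were not analysed here. The interferon genes Ifnb1, Ifna4 and Ifng lay between 2.42 and 3.70 on all 6 arrays, with no call in any comparison; they were added after their values were seen. The receptor chain Ifnar1 stood at 9.97 and 10.10 in marrow-derived, 9.75 and 9.65 in white and 9.30 and 9.21 in brown arrays, and passed against brown (0.78 ± 0.16, adjusted p = 0.0275) and not white (0.33 ± 0.16, adjusted p = 0.188). Its partner Ifnar2 had 10.61 and 10.25, against 10.59 and 10.38 in white and 10.55 and 10.50 in brown arrays. Of the interferon gamma receptor, Ifngr1 passed against brown (0.84 ± 0.19, adjusted p = 0.0358) with a difference of 0.37 from white, and Ifngr2 had differences of -0.41 and 0.69, neither of which passed. Irf3, the factor that starts interferon transcription, differed by 0.26 and 0.21, and Socs1, a feedback inhibitor, by -0.05 and 0.22 at levels near 4, and none of these passed.

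The largest difference from white on this signalling list was in the DNA-sensing arm. Sting1, the adaptor that relays cytosolic DNA to interferon genes, stood at 10.81 and 10.89 in the GFP and LacZ arrays, 8.53 and 7.07 in white and 8.79 and 8.33 in brown arrays. It was 8.29-fold above white (3.05 ± 0.49, adjusted p = 0.0123) and 4.89-fold above brown (2.29 ± 0.49, adjusted p = 0.0317). Cgas, the DNA sensor before it, was higher than in white (1.34 ± 0.31, adjusted p = 0.0314) and not past the threshold against brown (1.14 ± 0.31, adjusted p = 0.0566). Tbk1, the kinase after it, rose over both (1.06 ± 0.20 and 0.86 ± 0.20, adjusted p = 0.0176 and 0.0362), as did the receptor kinase Jak2 (1.27 ± 0.17 and 1.03 ± 0.17) and the endosomal RNA receptor Tlr3 (0.86 ± 0.16 and 0.91 ± 0.16). Mavs, the mitochondrial adaptor of the RNA sensors, went down, at 7.62 and 7.66 in marrow-derived, 8.38 and 8.49 in white and 9.28 and 9.18 in brown arrays. It was lower than in white (-0.80 ± 0.16, adjusted p = 0.0198) and than in brown (-1.59 ± 0.16, adjusted p = 0.00488), and lower in white than in brown (-0.79 ± 0.16, adjusted p = 0.0396). Irf5, a factor of myeloid cells, was lower than in white (-1.07 ± 0.18, adjusted p = 0.0139), and Socs3, an inhibitor of cytokine signalling, was higher (0.95 ± 0.17, adjusted p = 0.0166). Tlr7, an RNA receptor of leukocytes named here after its values were seen, stood at 9.89 in the GFP and 5.51 in the LacZ array, against 9.56 and 7.58 in white and 6.19 and 5.86 in brown arrays.

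**Figure D5:**
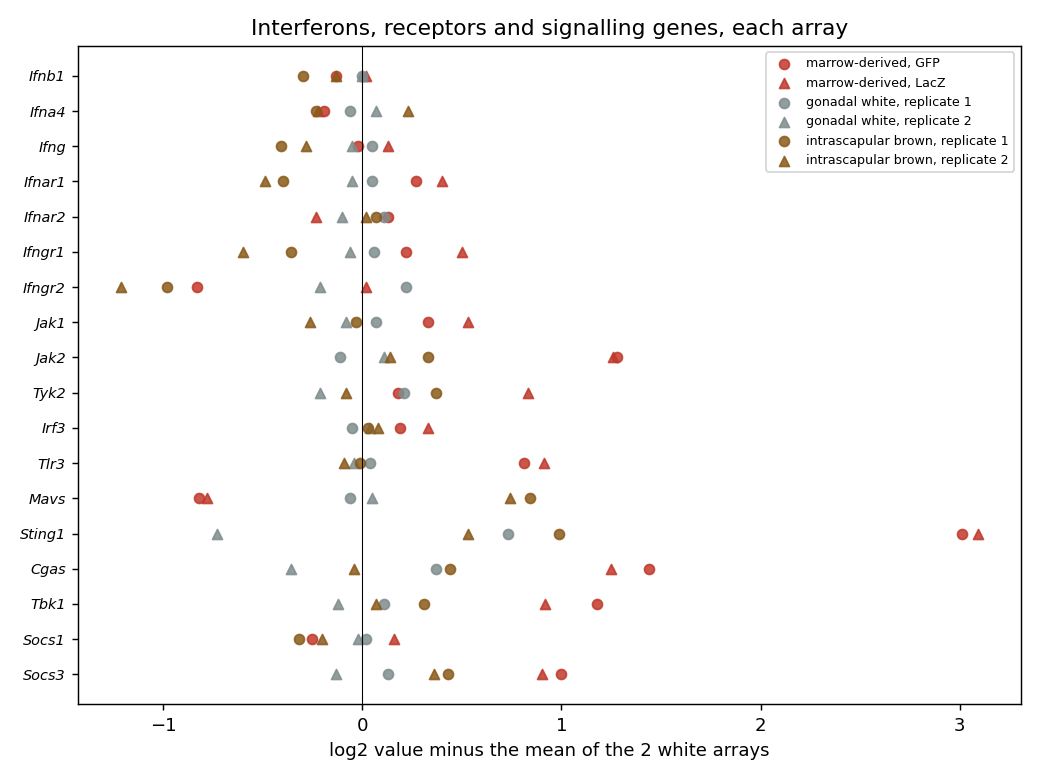
The log2 value of 18 interferon, receptor and signalling genes on each array, minus the mean of the 2 white arrays for that gene. Both marrow-derived points of Sting1 lie 3 log2 units right of 0, Mavs has them lowest of the 3 groups, and Ifnb1, Ifna4 and Ifng scatter within 0.5 of 0.

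A second list held 45 induced genes outside the 35, with 39 measured. Of these 23 were higher and 1 lower than in white, and 18 higher and 1 lower than in brown, with medians of 1.06 and 0.82, beside the same shares and medians over all genes (12.2% and 13.6% against white, 8.71% and 11.7% against brown, -0.07 and 0.02). The largest rises over white were in Helz2, a nuclear coactivator (3.65 ± 0.24), Cmpk2, a mitochondrial nucleotide kinase (3.18 ± 0.28), the GTPase Ifi47 (2.86 ± 0.45), Phf11d (2.66 ± 0.32), the nuclear body protein Sp100 (2.52 ± 0.25) and Xaf1 (2.20 ± 0.23). Against brown the largest called differences were in Ifi204, a DNA-binding protein (3.17 ± 0.55), the nucleic acid sensor Zbp1 (2.43 ± 0.46), the ligase Herc6 (2.07 ± 0.25), Ifi47 (1.98), Sp100 (1.81) and Rtp4 (1.65 ± 0.19). Cmpk2 stood at 9.41 and 9.73 in marrow-derived, 6.75 and 6.04 in white and 8.67 and 8.56 in brown arrays, so white was the group farthest from the other two. Ifi27, an inner mitochondrial and nuclear membrane protein, went the other way. It was lower than in both groups (-0.91 ± 0.15 and -1.16 ± 0.15, adjusted p = 0.0136 and 0.00937), at 11.99 and 11.96, against 12.83 and 12.94 in white and 13.09 and 13.16 in brown arrays. The class I heavy chain genes H2-K1 and H2-D1 differed by at most 0.15 in either comparison and did not pass, at values of 12.56 to 12.97. The chemokine gene Cxcl10, chosen with Cxcl9, Ifi27, H2-K1 and H2-D1 after values were seen, differed by -0.59 ± 0.28 and -0.96 ± 0.28 without passing (adjusted p = 0.194 and 0.0689), while its relative Cxcl9 rose over both (2.05 ± 0.17 and 1.02 ± 0.17).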

How the data were processed

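Sorted fat cells of mice were profiled on 6 arrays, 2 in each of 3 groups. The deposited values are log2 expression per probe set, 1 column per array. The submitters' processing notes name RMA and Partek, without version, role or order, and the log2 scale was read from the values. RMA usually equalizes the distributions of arrays and gives no detection calls. The deposited arrays were not fully level, with the medians over all probe sets highest in the marrow-derived arrays. They were 5.72 and 5.62 in marrow-derived, 5.54 and 5.47 in white and 5.50 and 5.46 in brown arrays. The number of arrays limits the precision.

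Of 43057 probe sets, 33565 carried a single symbol in GEO's annotation of the platform, 857 carried several and so named no gene, and 8635 were unnamed here. By gene ID, 33376 of the first matched RefSeq's table (GRCm38.p6). Group means over all 17720 genes and 6 arrays were fitted with limma 3.58.1 in R 4.3.3 (lmFit, contrasts, eBayes, 3 residual degrees of freedom); p-values are two-sided, were adjusted across all genes (Benjamini-Hochberg) and had a threshold of 0.05. A value after ± beside a difference is limma's standard error. The script was tested on simulated data.

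The members and gene lists were chosen with earlier results of these data known. The naming rule takes every measured member, up to 6 called genes per comparison of each added list, and a few receptors and checks. Alternatives left out each array, added the replicate number as a block, used the compared arrays alone, centred arrays on their medians, averaged probe sets, and dropped genes with a mean under 5. In each comparison, leaving out either array of the third group gave the same fit as the compared arrays alone.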

Additional observations from a re-analysis of the deposited data

Results flagged for a closer look

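A probe set outside the comparisons carried a signal of its own. The annotation gives it the symbols Isg15 and Gm9706 together, so it names neither gene, and it was left out of the counts. Its log2 value was 10.20 in the GFP and 10.61 in the LacZ array, against 7.39 and 7.22 in white and 8.36 and 8.37 in brown arrays. The mean difference was 3.10 from white and 2.04 from brown, with no test, and both marrow-derived arrays lay above the other 4.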

How the results depend on the processing

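With 1 array left out in turn, the count of genes higher in marrow-derived than in white arrays ranged from 17 to 26 (29 with all arrays), and its median difference from 1.35 to 1.90. Against brown the count ranged from 0 to 19 (20 with all arrays) and the median from 1.18 to 1.30. White against brown had 0 to 9 lower, 0 to 1 higher and a median of -0.66 to -0.17. Genes lower in marrow-derived arrays numbered 0 in both comparisons and every setting run. With limma, 30 of 33 genes had an unadjusted p under 0.05 against white and 27 against brown. The share of all genes under that unadjusted p was not counted, here or for the marker lists, so such counts are descriptions. In the comparisons with brown the lowest counts came without a brown array, when limma also called few of all genes. For marrow-derived against white the lowest count came without white replicate 2, when limma also called fewer of all genes. The causes were not tested. Where an arm kept 1 array, it was assumed to vary like the other groups.

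With the replicate number as a block, 28 and 18 genes were higher than in white and brown, and 5 were lower in white than in brown, against 9. The numbers 1 and 2 mark no stated pairing: across genes, which are not independent replicates, gaps between replicates correlated at 0.205 (marrow-derived and white), -0.004 (marrow-derived and brown) and 0.277 (white and brown). Median centring moved the median over all genes to -0.24 against white and -0.17 against brown, with members at 1.49 and 1.05. It left 27 and 17 genes called. Averaging probe sets gave a median of 1.08 against brown and turned Dhx58 against white (-0.029, adjusted p = 0.935). With the compared arrays alone 1 gene, Mx1, was higher in white than in brown (adjusted p = 0.033). Of the differences that did not pass, Mx1 from white was -0.30 without the GFP array, and Isg20 from white was -0.05 without white replicate 1.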
